A study of Mus musculus with 6 samples.

Results

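The 7 genes described here are Otor, Gsg1, Samsn1, Tmem265, Cnpy1, A730046J19Rik and Lrtm1. They are little studied in the retina and were taken from outside the known families of bipolar cell genes. They were picked on their low level in the Lhx4 null libraries against the controls, so every null against control value below describes how they were chosen and supports nothing. Where calls of that contrast are counted, they stand beside the background for all rows. They are 7 of the 21995 rows of the expression table, and 6 of them, all but Lrtm1, averaged 0.5 FPKM or more and so were among the 13175 rows tested. FPKM scales the fragments of a gene to its length and to all fragments mapped in that library. Otor, Gsg1 and Samsn1 are also named by the study from its retinas of this age, so their low level here is no independent evidence. By comparison with published single-cell data, the study lists Otor, Gsg1 and Samsn1 among the genes of bipolar cells that were reduced in null retinas. A730046J19Rik and Lrtm1 are listed there in the same way, but only from retinas of postnatal day 7, which were not analysed here. A link of these genes to bipolar cells was thus already reported.

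The null mice were Lhx4 tdT/loxP; Six3-Cre. One allele of Lhx4 was a knock-in of the tdTomato reporter and the other was flanked by loxP sites. Six3-Cre, which is active in the developing retina, deletes the second allele there, so that cells outside the reach of Six3-Cre still have it. The control mice are labelled only as control, and the study gives wild type or loxP/+ as the control genotype for its electroretinograms but none for these libraries. Both groups had a mixed C57BL/6J and 129S6 background and were taken at postnatal day 6, with 3 null and 3 control animals and 1 library of total RNA from the retinas of each animal after removal of the pigment epithelium. The labels number the animals 1 to 3 in each group and do not say what a number stands for.

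Bipolar cells link photoreceptors to the neurons of the inner retina, and in mice they are born late and mature in the first weeks after birth, when rods are also maturing and the last progenitors leave the cell cycle. LHX4 is a transcription factor of the LIM-homeodomain class, and many bipolar subtypes are set up by transcription factors of the homeodomain and basic helix-loop-helix classes. The 7 genes were not grouped by a pathway. Otor encodes otoraplin, a small secreted protein of the MIA family first studied in cartilage and the inner ear. Cnpy1 belongs to the canopy family of endoplasmic reticulum proteins, and in zebrafish it supports FGF signalling at the border of midbrain and hindbrain. Gsg1 is a germ cell gene whose paralogue Gsg1l encodes an auxiliary subunit of AMPA receptors. Samsn1, also known as Hacs1 and SLy2, encodes an adaptor with SAM and SH3 domains that acts in lymphocytes. Tmem265 and Lrtm1 encode transmembrane proteins, the second with leucine-rich repeats, and A730046J19Rik is listed in RefSeq with the synonym SERTM2.

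Some features of the libraries bear on all results below. Retinal markers were present in every library, among them Crx, a photoreceptor transcription factor, at 440.3 to 483 FPKM in null and 412 to 545 FPKM in control libraries. Lhx4 itself was higher in the null libraries, at 28.2, 28.3 and 25.8 FPKM, against 18.0, 18.1 and 19.3 FPKM in the controls. A value summed over a whole gene cannot show the loss of a deleted part, so Lhx4 does not check the labels, and the groups are called null-labelled and control here. Both libraries numbered 3 stood apart from the other 4. Of 13175 tested rows, 655 differed between the 3 replicate numbers (limma moderated F test with genotype in the model, adjusted by Benjamini-Hochberg, BH, under 0.05), 424 of them higher and 231 lower in number 3. Both libraries numbered 2 lacked Y-linked transcripts, with Ddx3y at 0.0142 FPKM in the null-labelled and 0.0284 FPKM in the control library, against 19.2 to 26.6 FPKM in the other 4. FPKM keeps no read number, and the depth under a value is therefore unknown. In bulk tissue, fewer cells of a type and less RNA per cell cannot be told apart.

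None of the 7 genes was at 0 in any library, and they did not form 1 pattern. Otor, Gsg1 and Samsn1 were low in null-labelled retinas in every pair of same-numbered libraries, and were also lowest in number 3 in both groups. Tmem265 and Cnpy1 were low in null-labelled retinas in every pair. Tmem265 had little or no lowering in number 3, while Cnpy1 in number 3 was the highest null-labelled and the lowest control value. A730046J19Rik varied more with number than with genotype, and the groups overlapped. Lrtm1, at under 1 FPKM in every library and below the filter for testing, was lowest in number 3 in both groups and overlapped between the groups, so its label as a gene lost without Lhx4 was not borne out by these values at this age.

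**Figure D1:**
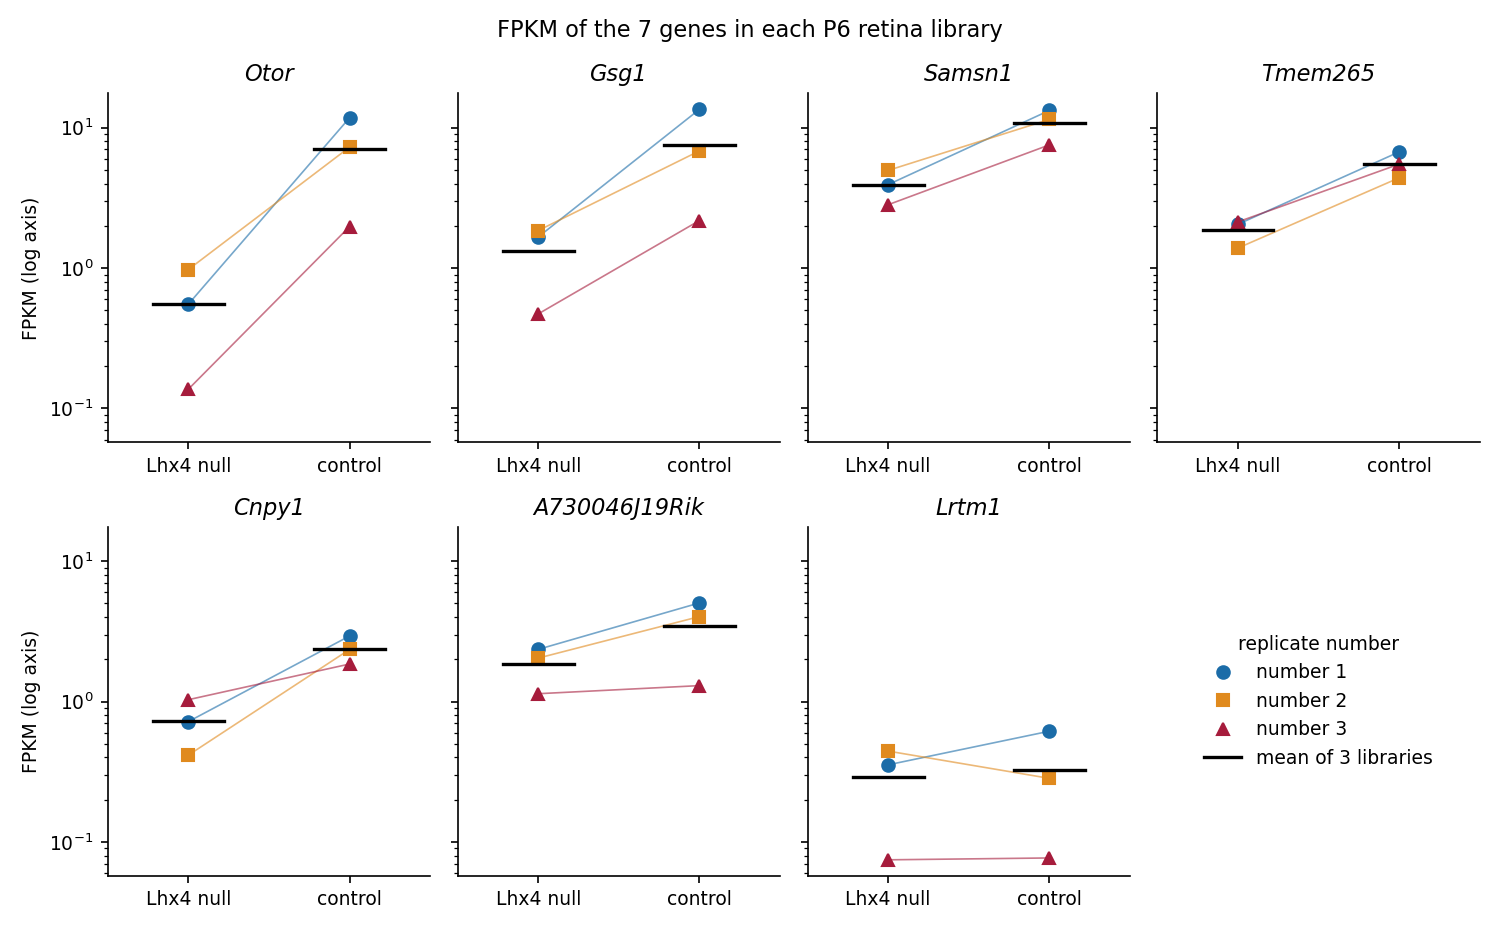
FPKM on a log axis for each of the 7 genes, with Lhx4 null-labelled libraries on the left and controls on the right of each panel. Symbols mark the replicate number, thin lines join libraries with the same number and thick bars are means of 3. The null-labelled and control points do not overlap for Otor, Gsg1, Samsn1, Tmem265 and Cnpy1, and they overlap for A730046J19Rik and Lrtm1.

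By level, which FPKM allows to be compared between genes, Samsn1 was the highest of the 7 in both groups, at 3.91 ± 1.07 FPKM in null-labelled and 10.8 ± 2.93 FPKM in control libraries (mean ± SD, n = 3 each). In null-labelled libraries the order below it was Tmem265, A730046J19Rik, Gsg1, Cnpy1, Otor and Lrtm1, and apart from Samsn1 and Tmem265 each gene overlapped its neighbour in that order. In control libraries the order below Samsn1 was Gsg1, Otor, Tmem265, A730046J19Rik, Cnpy1 and Lrtm1, and only Cnpy1 and Lrtm1 did not overlap their neighbour. Otor took place 6 of 7 in null-labelled libraries, against place 3 in control libraries, the largest difference in place among the 7.

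Across the 6 tested members, 5 had all null-labelled values below all control values, as did 728 of the 13175 tested rows (5.53%). With genotype alone in the fit no member was called lower in null, where the background was 1 row (0.00759%). With the replicate number as a block, Otor, Gsg1, Samsn1 and Tmem265 were called, where the background was 8 rows (0.0607%). Since this contrast chose the members, nothing is read from these counts. The median null minus control difference of the 6 was -1.35 on the log2(FPKM + 0.5) scale, against 0.0033 over all tested rows. That scale understates the change of low genes.

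The replicate number did not enter the choice of members and could be tested. The fit with genotype and number called 2 of the 6 for number, Gsg1 and A730046J19Rik, both lower in number 3, where 231 of all tested rows (1.75%) were called in that direction. Without adjustment, 5 of the 6 had a p under 0.05, as did 2667 of the 13175 tested rows. The difference of number 3 from the mean of numbers 1 and 2 had a median of -0.86 over the 6 members and -0.0020 over all tested rows. The difference between differences, that is the null minus control difference in number 3 less that in numbers 1 and 2, was called for 0 of the 6 by limma, against 5 of all tested rows (0.038%).

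**Figure D2:**
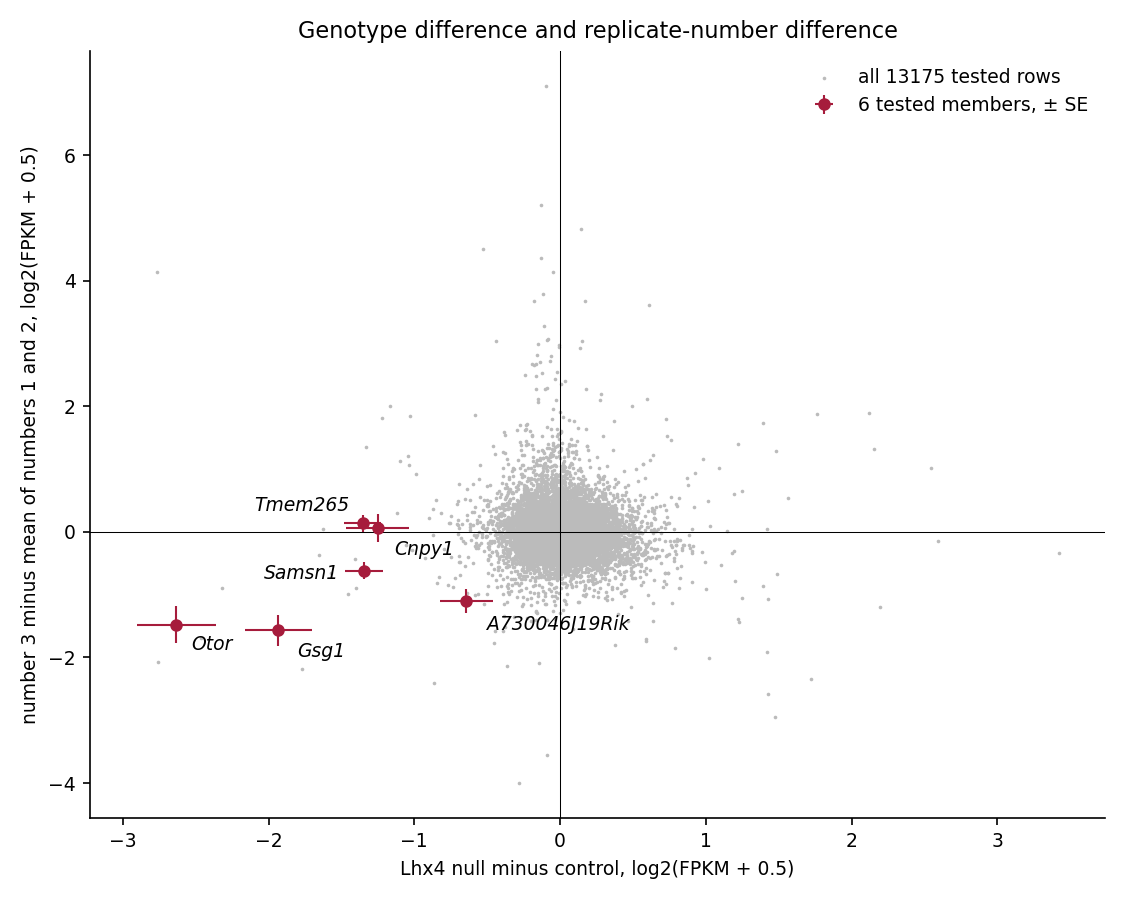
Each point is a tested row. The x axis gives the null minus control difference and the y axis the difference of number 3 from the mean of numbers 1 and 2, both on the log2(FPKM + 0.5) scale. The 6 tested members are red with standard errors (SE) from the fit with genotype and number, and they lie at -2.63 to -0.64 on the x axis and -1.57 to 0.14 on the y axis.

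Otor (chromosome 2, 143078473 to 143081713, plus strand, GRCm38, 1 annotated transcript) encodes the secreted protein otoraplin. It had 0.553, 0.977 and 0.137 FPKM in null-labelled libraries 1 to 3, against 11.8, 7.27 and 1.98 FPKM in controls 1 to 3. The highest null-labelled library was below the lowest control. The ratio of null-labelled to control was 0.0470 in pair 1, 0.134 in pair 2 and 0.0694 in pair 3. On the log2 scale the pair differences were -3.54, -2.40 and -1.96, with a mean of -2.63 (SE 0.274 with the block and 0.579 without it), the third lowest of all tested rows. Leaving out both libraries numbered 3 gave -2.97.

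Within each group the library numbered 3 had the least Otor, at 0.179 of the mean of numbers 1 and 2 in null-labelled and 0.207 of it in control libraries. The 2 ratios are close, so the low value of number 3 was shared by both groups in proportion. The fitted difference of number 3 was -1.47 (SE 0.290), a value that only 0.175% of tested rows lay below. The F test over numbers missed the threshold (BH-adjusted p = 0.0577, 0.00178 to 0.568 over 14 alternatives, of which 4 passed). On the log2(FPKM + 0.5) scale the null minus control difference was smaller by 1.01 in number 3 (SE 0.481, limma BH-adjusted p = 0.801), where the control level was also lowest. The plain FPKM ratio was not closer to 1 there, since pair 3 lay between pairs 1 and 2. The pseudocount of 0.5 exceeds the 0.137 FPKM of null-labelled library 3. Genotype took 74.4% of the variation of Otor over the 6 libraries, number 20.8% and the remainder 4.79%.

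Cartilage markers, chosen because Otor was first studied there, had summed levels of 70.2 to 93.4 FPKM in null-labelled and 71.4 to 113 FPKM in control libraries. These came mainly from Col2a1 and Col9a1, collagens that the retina and vitreous also contain, while Acan was at most 0.0810 FPKM and Matn1 was listed at 0 in all 6. Of the other MIA genes, Mia3 had 39.4, 41.3 and 28.0 FPKM in null-labelled and 48.1, 39.4 and 48.3 FPKM in control libraries, and the groups overlapped. Mia was at most 0.396 FPKM, and Mia2 was at most 0.0407 FPKM. The nearest tested genes on the chromosome were Snrpb2, at a log2 difference of 0.07, and Pcsk2, at 0.09.

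The promoter window of Otor in RefSeq is shown (GRCm38.p6, chr2:143078143-143078442, plus strand, 250 bases before to 50 after the start). It was looked at because Otor, Gsg1 and Samsn1 varied together over the libraries. All were picked as low in null-labelled libraries, and that choice by itself makes them vary together. A Pearson r over 0.95 was reached by 80 rows with Otor, 77 with Gsg1 and 54 with Samsn1. Shared regulation of these genes was not tested. A motif of the LIM-homeodomain class, TAATTA, and one bound by OTX2 and CRX, GGATTA with its reverse complement TAATCC, were searched on both strands. TAATTA is its own reverse complement. Neither motif is in this window.
Otor: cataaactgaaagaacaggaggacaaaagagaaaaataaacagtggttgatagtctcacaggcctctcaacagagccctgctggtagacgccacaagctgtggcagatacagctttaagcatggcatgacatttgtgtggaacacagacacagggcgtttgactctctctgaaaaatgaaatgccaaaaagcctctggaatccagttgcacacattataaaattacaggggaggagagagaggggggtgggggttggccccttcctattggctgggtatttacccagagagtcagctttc

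Cnpy1 (chromosome 5, 28200819 to 28245806, minus strand, 5 transcripts) encodes a protein of the endoplasmic reticulum. It had 0.720, 0.416 and 1.03 FPKM in null-labelled libraries 1 to 3, against 2.93, 2.35 and 1.85 FPKM in controls 1 to 3. No value overlapped, but both groups approached each other in number 3, where the null-labelled library was the highest of its group and the control the lowest of its own. As a share of the control, null-labelled Cnpy1 was 0.245 in pair 1, 0.177 in pair 2 and 0.557 in pair 3.

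The log2 differences of Cnpy1 were -1.49, -1.64 and -0.62 in pairs 1 to 3 (mean -1.25, SE 0.217 with the block), and -1.57 without the libraries numbered 3. The difference between differences was 0.95 (SE 0.351, unadjusted p = 0.0383, BH-adjusted p = 0.792), so it did not pass over all rows. Number 3 was at 1.82 times the mean of numbers 1 and 2 in null-labelled libraries and at 0.701 of it in controls. These opposite moves left a fitted number difference of 0.06 (SE 0.230, BH-adjusted p = 0.724). The sign of that value changed with the scaling, at -0.013 after scaling to the same total and -0.0065 after quantile normalization. Genotype took 84.6% of the variation, number 4.38% and the remainder 11.0%, the largest remainder of the 6 tested members.

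The other canopy genes were more abundant, and their differences between the groups were smaller than that of Cnpy1. Cnpy2 had 70.5, 71.5 and 71.6 FPKM in null-labelled and 79.0, 82.6 and 74.3 FPKM in control libraries. As with Cnpy1, its groups did not overlap, and in number 3 the null-labelled library was highest and the control lowest of its group. The log2 difference of Cnpy2 was -0.14 and was not called. Cnpy4 had 7.55, 7.88 and 11.4 FPKM in null-labelled and 7.85, 6.78 and 11.4 FPKM in control libraries, and was thus highest in number 3 in both groups (BH-adjusted p = 0.0576 over numbers). Cnpy3 and Mzb1, a canopy relative of B and plasma cells, differed by -0.11 and -0.24 between the groups. Of 16 genes of FGF signalling, 15 were tested, and 4 were lower and 11 higher in null-labelled libraries at a median of 0.04. By limma 0 were called for genotype, and 0 had an unadjusted p under 0.05. Over numbers, Fgf15 and Etv4 were called, both higher in number 3, with Etv4, a transcription factor downstream of FGF receptors, at 1.17, 3.45 and 3.88 FPKM in null-labelled and 1.42, 2.27 and 4.68 FPKM in control libraries.

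Gsg1 (chromosome 6, 135237326 to 135254351, minus strand, 4 transcripts) encodes a membrane protein of the claudin-like superfamily. It had 1.67, 1.85 and 0.472 FPKM in null-labelled libraries 1 to 3, against 13.5, 6.84 and 2.18 FPKM in controls 1 to 3. The groups did not overlap, although control 3 lay only a little above null-labelled library 2. Relative to its control, null-labelled Gsg1 was at 0.123 in pair 1, 0.271 in pair 2 and 0.216 in pair 3. The log2 differences were -2.69, -1.64 and -1.46, with a mean of -1.93 (SE 0.230 with the block and 0.600 without it), and -2.17 without the libraries numbered 3.

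Gsg1 had the lowest adjusted p over numbers of the 6 tested members. Number 3 was at 0.268 of the mean of numbers 1 and 2 in null-labelled and at 0.214 of it in control libraries. The fitted difference was -1.57 (SE 0.244), lower than in all but 0.152% of tested rows, and the F test over numbers passed (BH-adjusted p = 0.0241). The adjusted p ran from 0.00105 to 0.407 over 14 alternatives, of which 10 passed. It was 0.119 without null-labelled library 3 and 0.345 without control library 3, each of which leaves number 3 with 1 library, assumed to vary like the others. It was also lost with no filter on low values (0.407) and with no trend (0.0576). The difference between differences was 0.70 (SE 0.532, BH-adjusted p = 0.848). Number accounted for 36.3% of the variation of Gsg1 and genotype for 59.1%.

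Gsg1 overlaps Fam234b on the opposite strand, and whether the counting used strand is not given in the sources used here. Fam234b had 16.3, 14.8 and 13.2 FPKM in null-labelled and 14.1, 12.8 and 8.48 FPKM in control libraries, so it was not lower where Gsg1 was low between the groups, and it was lowest in number 3 in both. The part of the overlap in the values of Gsg1 was not tested. The paralogue Gsg1l had 3.89, 4.28 and 3.27 FPKM in null-labelled and 4.04, 3.34 and 3.19 FPKM in control libraries, with overlap. Of 8 germ cell markers, Prm2 and Odf1 were listed at 0 in all libraries, and the sum of the 8 was 3.71 to 5.28 FPKM in null-labelled and 4.09 to 7.32 FPKM in control libraries, most of it from Tssk6, which was highest in number 3 in both groups.

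**Figure D3:**
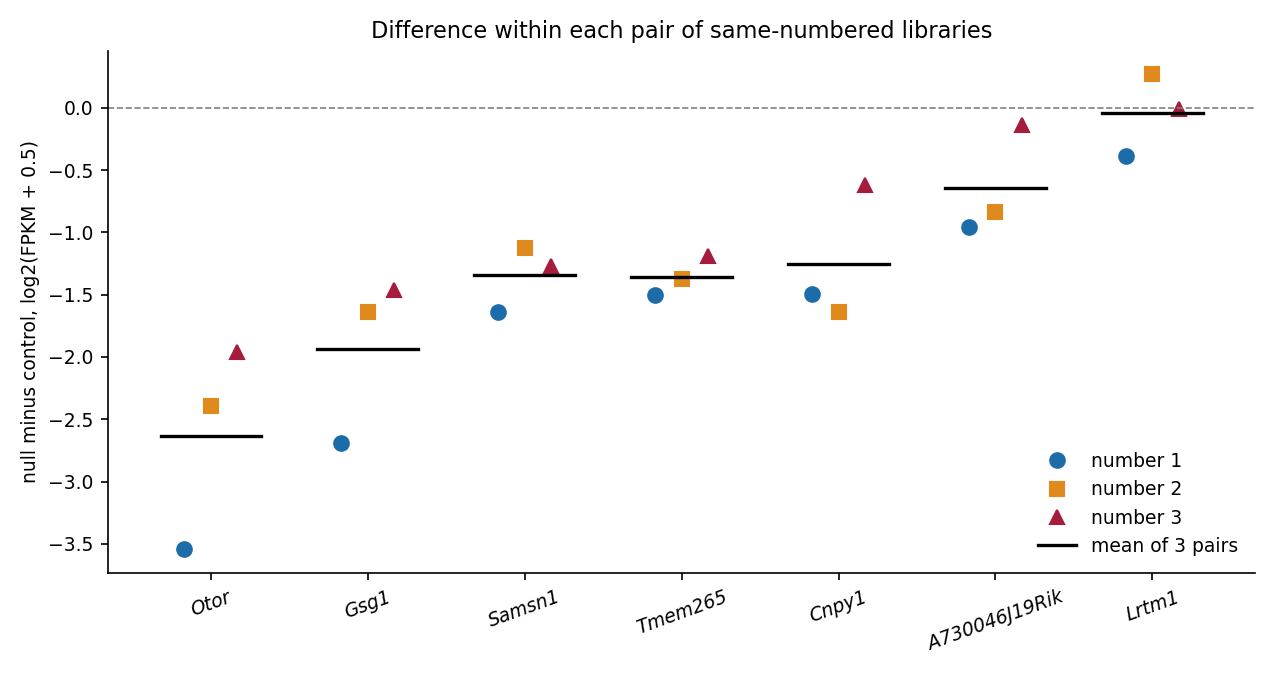
Null minus control difference on the log2(FPKM + 0.5) scale within each pair of libraries of the same number (symbols), with the mean of 3 pairs (bar) and no difference as a dashed line. All 3 pairs lie below 0 for 6 of the genes, from -3.54 for Otor in pair 1 to -0.14 for A730046J19Rik in pair 3, and on both sides of 0 for Lrtm1.

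Tmem265 (chromosome 7, 127561390 to 127566940, plus strand, 2 transcripts) had the steadiest difference of the 7. It had 2.05, 1.39 and 2.13 FPKM in null-labelled libraries 1 to 3, against 6.73, 4.40 and 5.50 FPKM in controls 1 to 3. The lowest control was more than 2 times the highest null-labelled library. Null-labelled over control, the ratio was 0.305 in pair 1, 0.316 in pair 2 and 0.388 in pair 3. The log2 differences were -1.50, -1.37 and -1.19 (mean -1.35, SE 0.130 with the block), and -1.44 without the libraries numbered 3.

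Number 2, not number 3, was the lowest for Tmem265 in both groups, at 0.677 of number 1 in null-labelled and 0.654 of it in control libraries. Libraries numbered 2 are those without Y-linked transcripts, and the part of this in Tmem265 was not tested. The F test over numbers gave an unadjusted p of 0.0333 and a BH-adjusted p of 0.199 (0.163 to 0.483 over 14 alternatives, none of which passed). The difference of number 3 from the others was 0.14 (SE 0.137), and 70.5% of tested rows lay below it. Genotype took 90.2% of the variation, the largest share among the 7 genes, and the remainder was 0.817%.

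Tmem265 shares its strand and part of its position with Gm42715, a protein-coding gene model, so fragments there may have been divided between them. Gm42715 had 7.30, 9.92 and 6.68 FPKM in null-labelled and 12.3, 8.80 and 10.6 FPKM in control libraries. It overlapped between the groups only through pair 2, where the null-labelled library was higher while Tmem265 was lower. When the 2 rows were added together, the highest null-labelled sum was 11.3 FPKM and the lowest control sum was 13.2 FPKM, both in pair 2. The sum includes Tmem265, which was chosen as low, and each FPKM is scaled to the length of its own gene. How fragments were divided between the 2 rows was therefore not tested. Srcap, which lies 171 bases away, went the other way, at 19.2 to 28.8 FPKM in null-labelled and 14.3 to 19.4 FPKM in control libraries (log2 difference 0.48, not called). Phkg2, on the other side, had a difference of -0.23.

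A730046J19Rik (chromosome X, 144153695 to 144166274, plus strand, 1 transcript) had 2.36, 2.04 and 1.14 FPKM in null-labelled libraries 1 to 3, against 5.05, 4.03 and 1.30 FPKM in controls 1 to 3. Control 3 was below null-labelled libraries 1 and 2, so the groups overlapped. The ratio of null-labelled to control was 0.467 in pair 1, 0.506 in pair 2 and 0.876 in pair 3. The ratio was thus similar in pairs 1 and 2 and closer to 1 in pair 3. The log2 differences were -0.96, -0.84 and -0.14 (mean -0.64, SE 0.183 with the block and 0.424 without it), and the mean was -0.90 without the libraries numbered 3.

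Number accounted for 67.0% of the variation of A730046J19Rik and genotype for 25.0%. Number 3 was at 0.518 of the mean of numbers 1 and 2 in null-labelled and at 0.286 of it in control libraries, and the fitted difference was -1.10 (SE 0.194, BH-adjusted p = 0.0383). The adjusted p ran from 0.0227 to 0.406 over 14 alternatives, of which 7 passed, and it was 0.390 without control library 3, 0.0723 without null-labelled library 3, 0.0680 without control library 2, 0.0656 without control library 1 and 0.0574 without null-labelled library 2. No filter gave 0.406 and no trend gave 0.0643. The difference between differences was 0.76 (SE 0.280, unadjusted p = 0.0374, BH-adjusted p = 0.792). Although the gene is X-linked, the libraries numbered 2 had values between those of the other numbers in both groups. Its neighbours Dcx and Alg13 differed by 0.44 and 0.04 between the groups, and neither was called.

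Lrtm1 (chromosome 14, 29018208 to 29033645, plus strand, 3 transcripts) was near the floor of the table. It had 0.354, 0.444 and 0.0746 FPKM in null-labelled libraries 1 to 3, against 0.615, 0.284 and 0.0769 FPKM in controls 1 to 3. The groups overlapped throughout. The ratio of null-labelled to control was 0.576 in pair 1, 1.56 in pair 2 and 0.970 in pair 3, so pair 2 went in the opposite direction to pair 1, and the 2 libraries of pair 3 were nearly equal. The mean log2 difference was -0.04. Leaving out control library 1 gave 0.20 and leaving out null-labelled library 3 gave 0.17, so the sign of this difference rests on single libraries.

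The number 3 libraries had 0.187 of the mean of numbers 1 and 2 in null-labelled and 0.171 of it in controls, the largest proportional loss among the 7 in control libraries. On the log2 scale, where the pseudocount of 0.5 exceeds most values of Lrtm1, this was -0.67. Number took 85.2% of the variation and genotype 0.334%. Lrtm1 had a mean of 0.308 FPKM and was tested only without the filter on low values, where its adjusted p over numbers was 0.444. It lies within Cacna2d3, a calcium channel subunit gene on the opposite strand, which had 5.07, 6.14 and 3.17 FPKM in null-labelled and 4.87, 4.43 and 2.69 FPKM in control libraries, also lowest in number 3 in both groups (log2 -0.71, BH-adjusted p = 0.0517). The part of the overlap in the values of Lrtm1 was not tested. The paralogue Lrtm2 was at 7.51 to 10.6 FPKM in all libraries.

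The promoter window of Lrtm1 (GRCm38.p6, chr14:29017958-29018257, plus strand) is shown as the only 1 of 8 windows of the members with GGATTA, in capitals, 73 bases before the start. That motif or its reverse complement is in 7.06% of 32851 RefSeq promoters of the same length.
Lrtm1: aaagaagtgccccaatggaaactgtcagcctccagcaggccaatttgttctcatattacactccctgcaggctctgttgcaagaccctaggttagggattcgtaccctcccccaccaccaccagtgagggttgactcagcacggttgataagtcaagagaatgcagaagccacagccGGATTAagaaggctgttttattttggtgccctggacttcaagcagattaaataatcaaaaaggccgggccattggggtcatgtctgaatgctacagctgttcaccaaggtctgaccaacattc

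Samsn1 (chromosome 16, 75858793 to 76022281, minus strand, 7 transcripts) is the intracellular adaptor of the set. It had 3.93, 4.97 and 2.83 FPKM in null-labelled libraries 1 to 3, against 13.3, 11.4 and 7.54 FPKM in controls 1 to 3. The groups did not overlap. Null-labelled libraries had 0.296 of the control level in pair 1, 0.434 in pair 2 and 0.375 in pair 3. The log2 differences were -1.64, -1.13 and -1.27 (mean -1.35, SE 0.130 with the block and 0.247 without it), and -1.38 without the libraries numbered 3.

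Samsn1 in number 3 was at 0.635 of the mean of numbers 1 and 2 in null-labelled and at 0.610 of it in control libraries, a lowering of the same proportion in both groups. The fitted difference was -0.62 (SE 0.137, BH-adjusted p = 0.0848, 0.0492 to 0.587 over 14 alternatives, of which 1 passed), and 2.67% of tested rows lay below it. The difference between differences was 0.11 (SE 0.261, BH-adjusted p = 0.955). Genotype took 82.4% of the variation and number 15.6%.

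Because Samsn1 acts in lymphocytes, leukocyte markers were set beside it. Of 10 tested leukocyte markers, 9 were higher in null-labelled libraries, the opposite direction to Samsn1. By limma 0 of the 10 were called, and 1 had an unadjusted p under 0.05. The sum of the 16 markers of the list was 42.9 to 60.5 FPKM in null-labelled and 36.1 to 42.9 FPKM in control libraries. Most of it came from genes of macrophages and microglia such as C1qb, at 8.53, 6.55 and 11.7 FPKM in null-labelled and 5.47, 7.15 and 8.04 FPKM in control libraries. The T cell marker Cd3e was listed at 0 in 5 of 6 libraries. The lymphocyte paralogue Sash3 was at 0.0458 to 0.185 FPKM, while the more widely expressed paralogue Sash1 had 2.90, 2.94 and 3.46 FPKM in null-labelled and 2.45, 2.54 and 2.52 FPKM in control libraries. On the chromosome, Hspa13 and Nrip1 next to Samsn1 had log2 differences of 0.31 and 0.22.

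The promoter window of Samsn1 at 1 of its annotated starts (GRCm38.p6, chr16:75909217-75909516, minus strand) is the only 1 of the 8 windows with TAATTA, in capitals, which it holds 2 times, 224 and 140 bases before the start. The motif is in 5.29% of the RefSeq promoters. RefSeq windows were matched for 6 of the 7 genes, all but Tmem265, and a match is a run of letters only.
Samsn1: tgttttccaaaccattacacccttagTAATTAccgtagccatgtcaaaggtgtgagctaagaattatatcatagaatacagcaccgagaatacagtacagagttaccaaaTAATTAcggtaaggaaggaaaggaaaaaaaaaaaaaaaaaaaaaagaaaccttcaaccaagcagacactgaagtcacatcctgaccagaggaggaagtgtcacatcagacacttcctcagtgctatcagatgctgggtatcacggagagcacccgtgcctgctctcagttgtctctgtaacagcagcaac

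**Figure D4:**
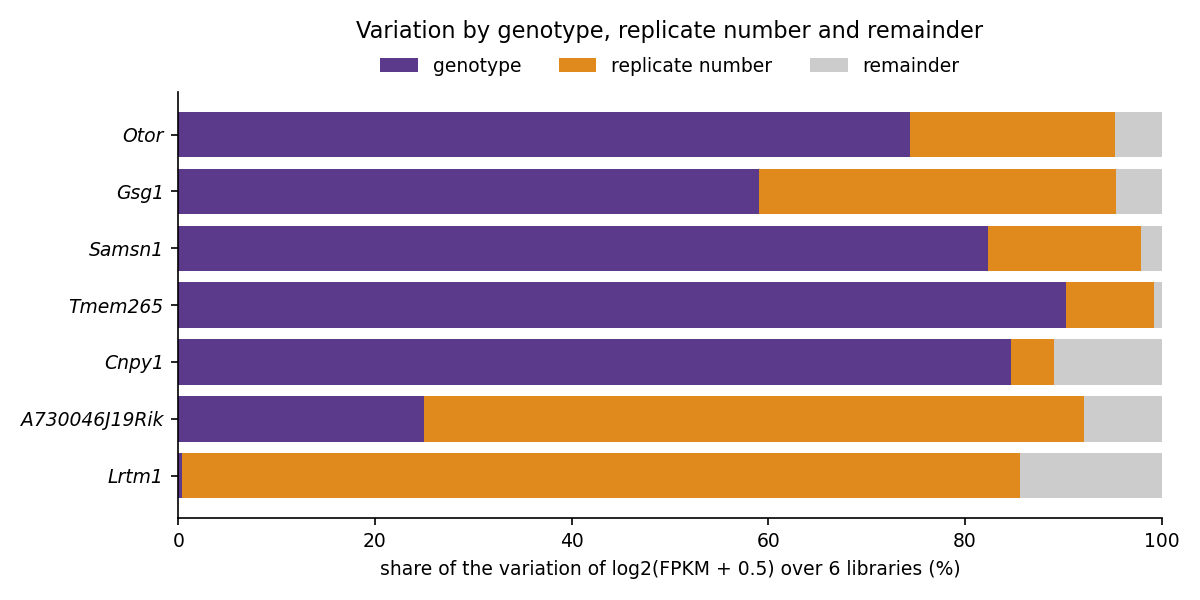
Share of the variation of log2(FPKM + 0.5) over the 6 libraries that lies between genotypes, between the 3 replicate numbers and in the remainder, for each gene. Genotype has the larger share for Otor, Gsg1, Samsn1, Tmem265 and Cnpy1 (59.1% to 90.2%), and number has it for A730046J19Rik (67.0%) and Lrtm1 (85.2%).

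Among all tested rows the median shares were 15.2% for genotype, 48.2% for number and 22.6% for the remainder. The shares of a gene add up to the whole, so the choice of members by genotype bears on their number shares too, and nothing is read from either.

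The members also differed in which library pairs set them apart from each other. Over the 6 libraries, log2 values of Otor, Gsg1 and Samsn1 ran together (Pearson r of 0.980 for Otor and Gsg1, 0.988 for Otor and Samsn1, 0.954 for Gsg1 and Samsn1), and so did Tmem265 and Cnpy1 (0.962). A730046J19Rik was closest to Gsg1 (0.921), and Lrtm1 was closest to A730046J19Rik (0.808), whereas Lrtm1 and Tmem265 had an r of 0.050. These are descriptions over 6 libraries, in which the 2 groups and the libraries numbered 3 set most of each r. The rows most like Otor over the libraries were Eno3 (0.995), Gga1 (0.992) and Auh (0.989), and those most like Gsg1 were Fam19a3 (0.992), Ecsit (0.989) and Gpld1 (0.987). Samsn1 was nearest to Gga1 (0.999), Arhgef2 (0.998) and Wrap53 (0.997). Tmem265 was nearest to Kmt5a (0.993), B930041F14Rik (0.985) and Csk (0.983), and Cnpy1 to Arpc1a (0.992), Taf5 (0.990) and Pkig (0.986). A730046J19Rik was nearest to Ppard (0.990), Dnttip1 (0.990) and Camkk1 (0.989), and Lrtm1 to Prrt1 (0.998), Mbd1 (0.997) and Col12a1 (0.993).

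A high r did not mean an equal size of change. Fam19a3, the row most like Gsg1, had 8.36, 8.97 and 6.60 FPKM in null-labelled and 18.0, 12.7 and 9.01 FPKM in control libraries, a smaller spread than that of Gsg1. Gga1, the row most like Samsn1, had 15.0, 15.4 and 14.5 FPKM in null-labelled and 17.3, 16.9 and 16.1 FPKM in control libraries. Between 24 rows (Tmem265 and Cnpy1) and 150 rows (Lrtm1) had an r over 0.95 with a member.

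**Figure D5:**
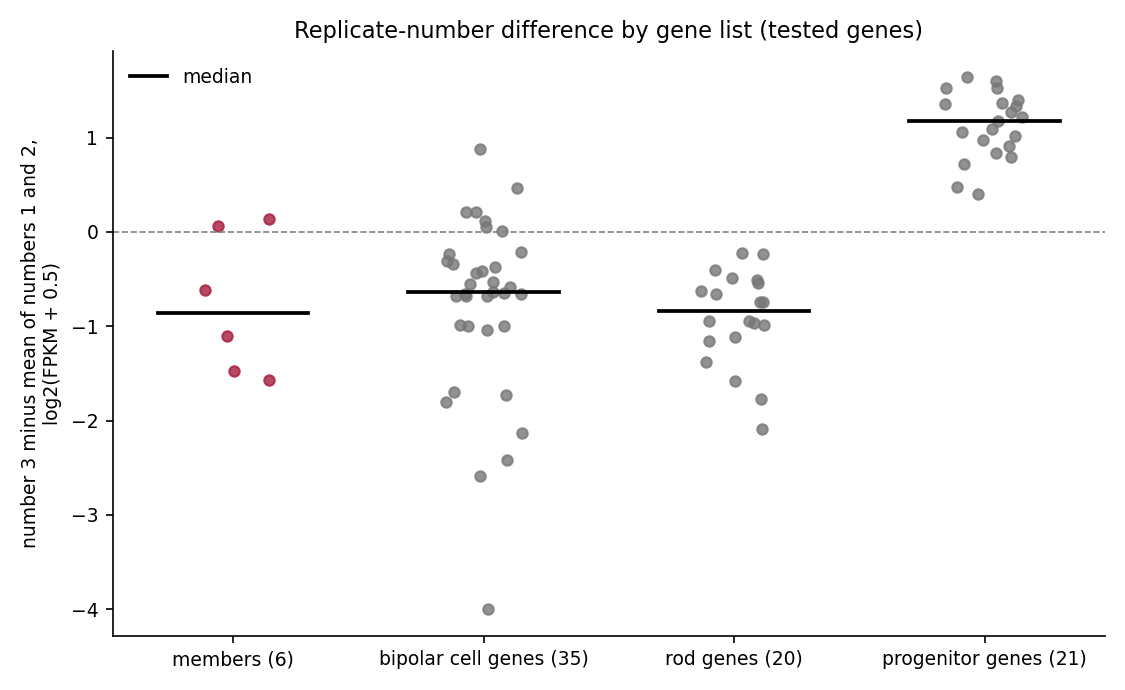
Difference of number 3 from the mean of numbers 1 and 2 on the log2(FPKM + 0.5) scale for the 6 tested members and for tested genes of bipolar cells (35), rods (20) and progenitors (21), with the median of each as a bar. The medians are -0.86 for the members, -0.63 for bipolar cell genes, -0.84 for rod genes and 1.18 for progenitor genes.

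Set beside lists of retinal cell types, 4 of the 6 tested members had the direction of most bipolar and rod genes. Of 35 tested bipolar cell genes, 28 were lower in number 3, 10 were called lower and 1 was called higher. Vsx1, among those called lower, had 3.70 FPKM in null-labelled library 3 and 18.2 and 18.1 FPKM in the other 2. In controls Vsx1 had 0.541 FPKM in number 3 and 11.2 and 5.62 FPKM in the other 2. All 20 rod genes were lower in number 3 and 12 were called, among them Pde6b, a rod phosphodiesterase subunit. All 21 progenitor genes were higher in number 3 and 17 were called, with Top2a, a topoisomerase of dividing cells, at 34.1 FPKM in null-labelled library 3 and 37.1 FPKM in control 3, against 9.17 to 13.4 FPKM in the other 4. Otor (-1.47), Gsg1 (-1.57), A730046J19Rik (-1.10) and Samsn1 (-0.62) were on the side of the bipolar and rod genes. The study had already listed these genes with bipolar cells, A730046J19Rik only from postnatal day 7. Tmem265 (0.14) and Cnpy1 (0.06) were near 0, and for Cnpy1 this value joins opposite moves in the 2 groups. Of 12 amacrine cell genes, 6 were lower and 6 higher in number 3, at a median of -0.0090, with 1 called in each direction. What a number stands for is not in the labels, and the part of cell type makeup or stage in these differences was not tested.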

How the data were processed

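RNA-seq of P6 retinas was compared between 3 null and 3 control animals. Per the submitters' processing notes, reads were mapped with TopHat2 and Cufflinks was used on GRCm38. Tool versions, the annotation and the strand setting were not given in the sources used here. The deposited values are FPKM per gene as the authors made them. Ratios of low values between libraries were examined for whole-read steps, and at most 7.83% of low rows shared a ratio between 2 libraries, so reads were not recovered and no count test was run. Of 21995 rows, 172 had repeated names (the most abundant row of each name was used under it) and 27 had a date for a name. FPKM totals were 386567 to 429668 per library, which bounds no counting error, so precision rests on the spread between animals.

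Tests used limma 3.58.1 in R 4.3.3 on log2(FPKM + 0.5) with a mean-variance trend, for the 13175 rows that averaged 0.5 FPKM or more, two-sided, BH-adjusted over all of them at 0.05. Fits held genotype alone, genotype and number, or genotype, number 3 against 1 and 2 and their product. Same-numbered libraries deviated together from their group means across rows (r = 0.394, 0.260 and 0.675 for numbers 1, 2 and 3). Null-labelled library 2 correlated better with control 1 (0.377) than with its own number. Control 2 correlated better with null-labelled library 1 (0.269) than with its own number. Deviations from a group mean cancel out, so number 3 standing apart also raises every r among numbers 1 and 2. These r values thus set number 3 apart and do not show how numbers 1 and 2 pair. Pairing the libraries by number, in the pair ratios and the block, was a choice that the labels do not state.

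Scripts were tested on simulated data. The members and lists were chosen with earlier results of these data known. Named are the members, Lhx4, members of their gene families, for each member the 3 rows of highest r, neighbouring and overlapping genes, and up to 3 genes of each list by their p for number. Further genes that the text gives as marker levels (Crx, Ddx3y, Matn1, Acan, Prm2, Odf1, Cd3e and lens genes) were named after their values were seen. Some genes of the lists are not reported here. Positions are from GENCODE M21, which matched 12790 tested rows (97.1%) by name, and promoters from RefSeq. Alternatives were pseudocounts, filters, scalings, no trend, a replicate block, each library left out and both libraries numbered 3 left out. Libraries of postnatal day 7 were not analysed here.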

Additional observations from a re-analysis of the deposited data

How the results depend on the processing

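Of the 13175 tested rows, 2 were called for genotype alone, 655 for number and 5 for the difference between differences (limma). Genotype calls numbered 12 with the replicate block, 11 with both libraries numbered 3 left out, 9 with no filter on low values and 0 to 5 with 1 library left out. Number calls were 59 with no filter, 327 with no trend and 23 to 674 with 1 library left out, the lowest without control 3 and the next, 92, without null-labelled library 3. Difference calls were 558 with no filter and 2 to 11 with 1 library left out, but could not be fitted without a library numbered 3, which leaves no such pair. The cause of these shifts was not tested. The median difference of the 7 members was -1.53 to -1.18 over 16 alternatives. The Cnpy1 number difference of 0.06 was -0.013 scaled to the same total, -0.0065 after quantile normalization and -0.41 to 0.54 with 1 library left out. The Lrtm1 genotype difference was -0.27 to 0.20 with 1 library left out. Scaling moved the median of all rows by at most 0.042. The 4 members called with the block did not keep that call in every setting. Over 14 alternatives to the blocked fit it held in 7 for Otor, 5 for Gsg1, 8 for Samsn1 and 9 for Tmem265. With no filter it held for none of them, and without control 2 or null-labelled library 3 likewise for none. FPKM without read numbers limits what can be said of Lrtm1, whose values are under 1 FPKM.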

Other observations

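Lens genes, which were listed as markers of a neighbouring tissue, had summed levels of 3.08 to 26.6 FPKM in null-labelled and 2.55 to 5.69 FPKM in control libraries. The crystallin gene Crygd was listed at 0 in null-labelled library 1 and had 6.83 and 5.47 FPKM in null-labelled libraries 2 and 3, against 0, 0 and 0.491 FPKM in controls 1 to 3. By limma 0 of the 6 tested lens genes were called for genotype or for number. Without adjustment, 1 of them had a p under 0.05 for genotype and 2 for number. In summed lens genes null-labelled library 1 was the lowest of its group, which it was for none of the 7 genes described above.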
